A study of Mus musculus with 8 samples.

Results

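The genes described here encode 26 interleukins, interleukin receptor chains and close relatives, measured in cultures that the labels describe as activated mouse CD8 T cells. They are the rows of the deposited expression table whose symbol is Il followed by a digit, after setting aside Il1rl1, Il13, Il4ra, Il3, Il15, Il15ra, Il2, Il6ra and Il18r1. That left 26 of the 754 genes on the panel. By role they fall into 15 ligands, 9 receptor chains and 2 others, the receptor antagonist gene Il1rn and the enzyme gene Il4i1.

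Per the labels, CD8 T cells were taken from spleens of C57BL/6 mice by negative selection, with the strain and cell type the same in both groups and no age given. In the KO-medium group, 4 samples were cultured in medium from B16F10 cells with an SSBP4 knockout, B16F10 being a mouse melanoma line. In the WT-medium group, 4 samples had medium from B16F10 cells that were wild type for SSBP4. In both groups the tumour cells had conditioned the medium for 48 hours, and the T cells then spent 48 hours in 200 µl of it with 10% LDS, an additive that the labels do not spell out, and with anti-CD3 and anti-CD28 antibodies at 2 µg/ml. The T cells themselves carried no knockout of this gene, as far as the labels say. The labels do not say how many tumour clones, batches of medium or mice stood behind the 4 samples of a group, so the p-values below reflect how far these samples lay apart, and that distance may be technical.

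Interleukins are secreted proteins with which immune cells signal to each other and to their surroundings. Most bind a receptor chain of their own, which then pairs with a chain shared by several interleukins, and the pair signals through JAK kinases and STAT factors. The IL-1 family, to which IL-18 and IL-33 belong, uses instead receptors with Toll-like signalling domains, and the IL-17 family a further receptor type. In CD8 T cells, receptors for such cytokines set how the cell divides, survives and differentiates after its antigen receptor has been engaged.

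RNA was counted with barcoded probes on the nCounter Myeloid Innate Immunity panel, and the values are normalized signal as the authors deposited it. Counts recovered from these values summed to between 188174 and 346651 per sample, and 1 count was worth 0.792 to 1.33 units of signal. A gene was called detected in a sample at a signal of 22.1 or more, a threshold that lies 2 SD above the mean of the 8 negative control probes taken over all samples. The control probes are whole counts without the deposited scaling, so this threshold stands for a different number of counts in each sample. It asks for more counts in WT-medium sample 1 (0.792 units a count) than in KO-medium sample 1 (1.33). Il3ra was thus undetected in WT-medium sample 1 on 27 counts, while Il27ra was detected in KO-medium sample 1 on 18. Of the 19 T cell markers listed, 6 were measured and their summed signal was 1543 to 2308 in KO medium, against 715 to 1052 in WT medium. All 6 (Cd247, Cd27, Cd28, Fyn, Lat and Ptprc) were detected in every KO-medium sample and 4 of them in every WT-medium sample. The defining chains of the labelled cell type, Cd8a and Cd8b1, were not analysed here. The 7 measured fibroblast and mesenchymal markers summed to 562 to 877 in KO medium, against 6530 to 7868 in WT medium. Cd34 alone made up 4503 to 5069 of the WT-medium sum, and Pdgfrb went the other way (26.5 to 43.8 in KO medium, against 20.9 to 23.5 in WT medium). In WT medium the mesenchymal sum was thus larger than the T cell sum, while in KO medium the T cell sum was the larger. Which cells the RNA came from was not tested. In such bulk RNA, fewer cells of a type and less RNA per cell cannot be told apart.

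Genes detected throughout a medium were mostly receptor genes. In KO medium 7 of the 26 genes were detected in all 4 samples, and in WT medium 4 were, where 51.5% and 48.3% of the whole panel were. In KO medium these were 6 of 9 receptor genes and 1 of 15 ligand genes, and in WT medium 3 of 9 and 1 of 15. Il17ra, Il1rap, Il21r and Il18 were detected in all 8 samples. Under each of the 3 other thresholds tried, Il18 was no longer detected in every WT-medium sample, so that 0 of 15 ligand genes were, while Il3ra was gained there under 2 of them. Il3ra was detected in 4 KO-medium and 3 WT-medium samples, Il10ra in 4 and 2, and Il27ra in 4 and 0. The only other gene to reach the threshold in any sample was the ligand gene Il9, in 2 KO-medium samples. The other 18 genes stayed below it throughout. Probes bind with different efficiency, so these counts compare each gene with background and not genes with each other.

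**Figure D1:**
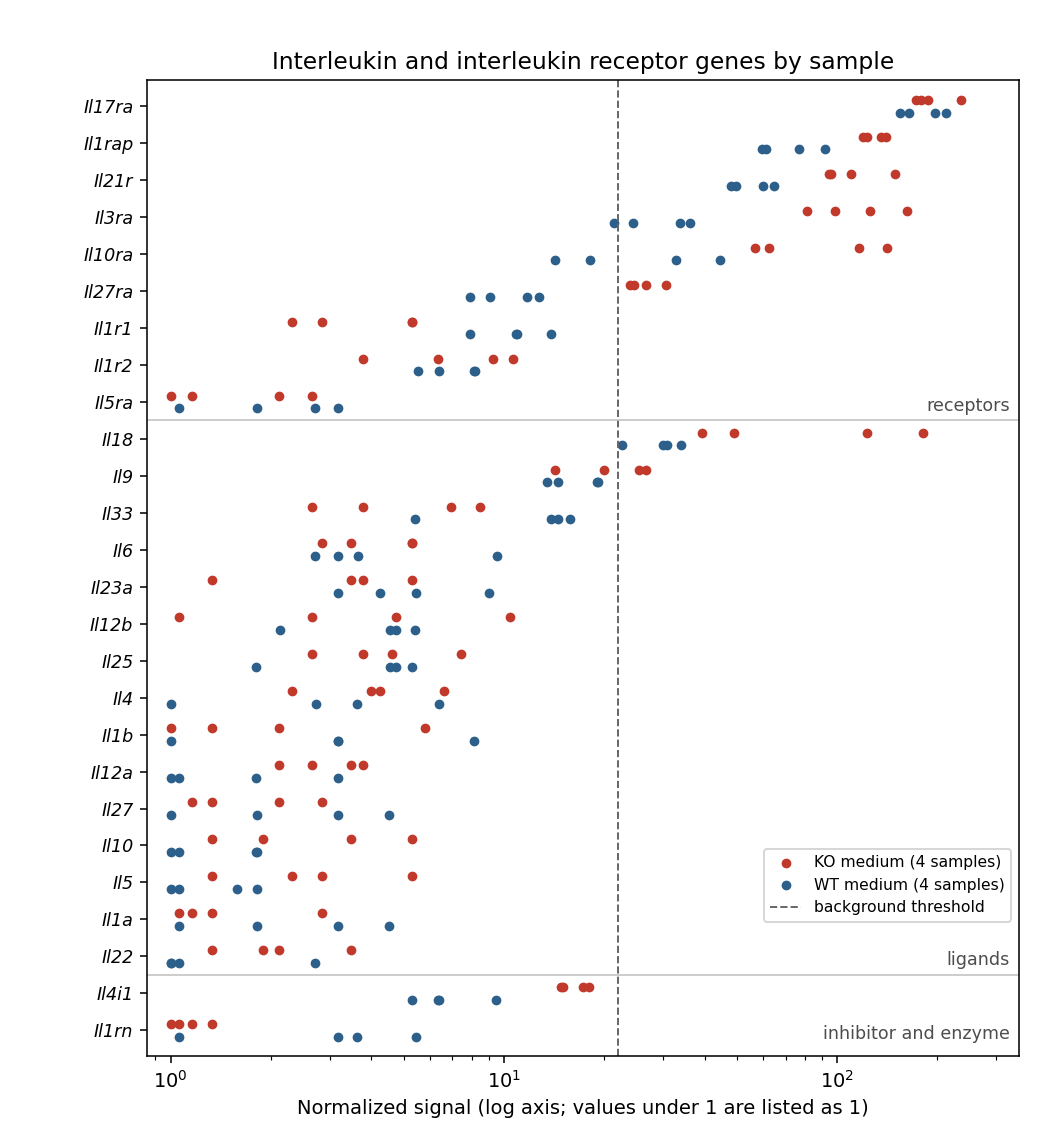
Normalized signal (log axis) of the 26 genes in each of the 8 samples, with KO medium in red above WT medium in blue for each gene and the background threshold of 22.1 as a dashed line. Points to the right of the line are mostly receptor genes. Il18 is the 1 ligand gene that lies to the right of it in all 8 samples.

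Genes with a mean over all 8 samples at or above the threshold were tested, which took in 6 of the 26: the receptor genes Il3ra, Il10ra, Il21r, Il1rap and Il17ra, and the ligand gene Il18. A gene can pass this filter through the group in which it is high. With the threshold asked of the mean of each medium, the same 6 genes were tested and 5 were called higher. In that fit 170 of all 375 tested genes were higher and 86 lower. Of these 6 genes 5 were higher in KO medium and 0 lower (limma, Benjamini-Hochberg adjusted p under 0.05 over all 454 genes tested), while 46.9% of all tested genes were higher and 24.7% lower. The median log2 change was 1.22 for the 6 and 0.41 for all tested genes. The 4 values of each medium did not overlap for the same 5 genes, and 44.3% of all tested genes lay wholly above in this way. In recovered counts, without the deposited scaling or any correction for depth, the groups overlapped for Il10ra, Il1rap and Il18. Il10ra had 47 counts in KO-medium sample 1 and 49 in WT-medium sample 3. Il1rap had 90 in KO-medium sample 1 and 116 in WT-medium sample 1. Il18 had 34 in KO-medium sample 2 and 39 in WT-medium sample 1. The counts did not overlap for Il3ra and Il21r. Because 1 was added to each value before the log2 was taken, the log2 changes of low genes are understated.

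To show what lies upstream of these genes, the promoters of Il3ra, Il1rap, Il21r and Il18 are printed from a table of RefSeq promoters (GRCm38.p6), and those of Il10ra and Il17ra are not analysed here. The sequences run 5′ to 3′ on the strand of the gene, from 250 bases before its annotated start to 50 bases after it. All 4 genes were higher in KO medium. Capitals mark matches, on either strand, to GGGCGG (the GC box), TGTGGT (the RUNX site), CCAAT (the CCAAT box), TATAAA (the TATA box) or GAAANNGAA (part of the interferon response element).
Il3ra (chr14:14346245-14346544, plus strand): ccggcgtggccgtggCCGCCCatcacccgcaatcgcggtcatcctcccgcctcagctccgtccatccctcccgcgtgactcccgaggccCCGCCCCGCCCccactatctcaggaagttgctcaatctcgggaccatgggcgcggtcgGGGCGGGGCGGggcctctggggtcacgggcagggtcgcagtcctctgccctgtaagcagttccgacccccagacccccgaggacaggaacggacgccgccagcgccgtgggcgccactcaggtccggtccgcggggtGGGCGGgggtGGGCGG
Il1rap (chr16:26581455-26581754, plus strand): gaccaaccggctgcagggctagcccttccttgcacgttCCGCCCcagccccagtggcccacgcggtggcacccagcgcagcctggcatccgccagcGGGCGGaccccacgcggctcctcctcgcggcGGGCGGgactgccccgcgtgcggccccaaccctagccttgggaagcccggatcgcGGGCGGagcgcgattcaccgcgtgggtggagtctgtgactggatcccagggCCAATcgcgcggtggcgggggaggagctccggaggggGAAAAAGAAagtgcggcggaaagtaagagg
Il21r (chr7:125603179-125603478, plus strand): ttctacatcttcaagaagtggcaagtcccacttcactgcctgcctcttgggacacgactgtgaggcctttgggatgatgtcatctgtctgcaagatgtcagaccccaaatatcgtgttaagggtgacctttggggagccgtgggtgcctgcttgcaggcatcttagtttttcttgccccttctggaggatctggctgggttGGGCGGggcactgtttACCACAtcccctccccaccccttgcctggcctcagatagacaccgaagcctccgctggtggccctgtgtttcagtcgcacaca
Il18 (chr9:50554450-50554749, plus strand): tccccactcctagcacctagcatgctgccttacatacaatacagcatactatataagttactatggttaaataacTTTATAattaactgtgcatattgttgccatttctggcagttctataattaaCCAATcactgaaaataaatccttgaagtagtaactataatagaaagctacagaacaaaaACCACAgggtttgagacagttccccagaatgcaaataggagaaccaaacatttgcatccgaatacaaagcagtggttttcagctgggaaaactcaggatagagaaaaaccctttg

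The windows differed in composition. GC content was 74.3% for Il3ra, 72.0% for Il1rap, 56.0% for Il21r and 36.7% for Il18, against a median of 52.7% over 32851 promoters of this length. GGGCGG occurred 7 times in Il3ra, where some matches adjoin or share a base, 4 times in Il1rap, once in Il21r and not in Il18, and 35.7% of all promoters hold it. TGTGGT was found in Il21r and Il18 (16.8% of promoters), CCAAT in Il1rap and Il18 (37.4%), TATAAA in Il18 (13.6%) and GAAANNGAA in Il1rap (8.56%). TTCNNNGAA (the STAT site GAS), TGANTCA (AP-1) and CCGGAA (ETS) had no match in these 4 windows, and 8.30%, 7.81% and 14.9% of all promoters hold them. A match is a string of letters and not a shown binding site.

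Il3ra, which encodes the ligand-specific alpha chain of the IL-3 receptor, had the largest change of the 6. Its signal was 81.0, 98.4, 162 and 125 in KO-medium samples 1 to 4, against 21.4, 36.2, 33.7 and 24.4 in WT-medium samples 1 to 4. Each KO-medium sample was thus higher than any WT-medium sample, and the WT-medium samples lay near the threshold, 1 of them just below it. The mean was 117 ± 35.4 in KO medium and 28.9 ± 7.13 in WT medium (SD, n = 4 each), a log2 change of 1.96 (SE 0.26, limma adjusted p = 0.000162). Il3ra was also the 1 gene of the 6 whose call held in all 23 alternative fits, with log2 changes from 0.71 to 2.27.

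Il10ra encodes the chain that binds IL-10, a cytokine that restrains inflammation. It stood at 62.4, 56.7, 141 and 117 in KO medium, against 14.25, 18.1, 44.6 and 32.9 in WT medium. Samples 3 and 4 were higher than samples 1 and 2 in either medium, 2.16-fold in KO medium and 2.40-fold in WT medium, and WT-medium samples 1 and 2 were below background. The mean of 94.2 ± 41.3 in KO medium, against 27.5 ± 13.97 in WT medium, gave a log2 change of 1.77 (SE 0.43, limma adjusted p = 0.00481). Within samples 1 and 2 alone the change was 1.83 and within samples 3 and 4 alone 1.72, and whether the change differed between these sample pairs was not tested for this or the other genes. The call was lost when samples 1 and 2 were averaged and samples 3 and 4 were averaged, which leaves 2 values a medium (limma adjusted p = 0.0710).

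Il21r encodes the receptor of IL-21, a helper T cell cytokine that acts on CD8 T cells through the common gamma chain. Its signal was 94.3, 149, 110.3 and 95.7 in KO medium, against 49.9, 48.0, 60.05 and 64.8 in WT medium. The groups did not overlap, and sample 2 was the highest in KO medium, unlike the other 6 genes detected in every KO-medium sample, which peaked there in sample 3. Il21r averaged 112 ± 25.7 in KO medium and 55.7 ± 8.08 in WT medium, a log2 change of 0.99 (SE 0.19, limma adjusted p = 0.00134). The change was 1.26 within samples 1 and 2 and 0.71 within samples 3 and 4, and its call was lost with quantile normalization (0.51, limma adjusted p = 0.0914).

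Il1rap encodes the accessory chain that the receptors of IL-1, IL-33 and IL-36 share. It had 119.6, 123, 140.01 and 136 in KO medium, against 91.9, 76.9, 61.0 and 59.5 in WT medium. Its KO-medium samples lay close together, while in WT medium samples 3 and 4 were the lowest. The mean was 129 ± 9.86 in KO medium and 72.3 ± 15.2 in WT medium, a log2 change of 0.85 (SE 0.16, limma adjusted p = 0.00146). The change was 0.52 within samples 1 and 2 and 1.18 within samples 3 and 4, and it lost its call with median scaling (0.46, limma adjusted p = 0.0548), with quantile normalization (0.44, 0.0636) and with the sample pairs averaged (0.0547). Of the ligand-binding partners of this chain, Il1r1, the signalling IL-1 receptor, was 2.32 to 5.31 in KO medium, against 7.92 to 13.8 in WT medium, and Il1rl1, the IL-33 receptor, was 3.79 to 6.95 in KO medium, against 4869 to 7888 in WT medium.

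Il17ra encodes the chain that most IL-17 family receptors share. Its signal was 187, 178, 235 and 172.5 in KO medium, against 165, 155, 212 and 197 in WT medium. The groups overlapped, and sample 3 was the highest of each. It averaged 193 ± 28.7 in KO medium and 182 ± 26.8 in WT medium, and the log2 change of 0.088 did not pass (SE 0.15, 95% interval -0.24 to 0.42, limma adjusted p = 0.609). Its sign was negative, without passing, with median scaling (-0.30), quantile normalization (-0.24) and positive-control scaling (-0.061).

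Il27ra, which encodes the ligand-specific chain of the IL-27 receptor, was too low on average to be tested. It was 23.9, 26.6, 30.8 and 24.6 in KO medium, against 7.92, 11.8, 9.10 and 12.75 in WT medium, so that it was just above background in one medium and below it in the other. It was 1 of 27 panel genes, or 3.58%, detected in all KO-medium and no WT-medium samples. With values raised to the threshold, KO medium was at least 1.19-fold higher. These signals rest on 18, 23, 29 and 26 counts in KO medium, against 10, 13, 10 and 12 counts in WT medium. Il27ra was no longer detected in all KO-medium samples when the threshold was set at 3 SD, from each sample's own controls or at the highest control probe.

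**Figure D2:**
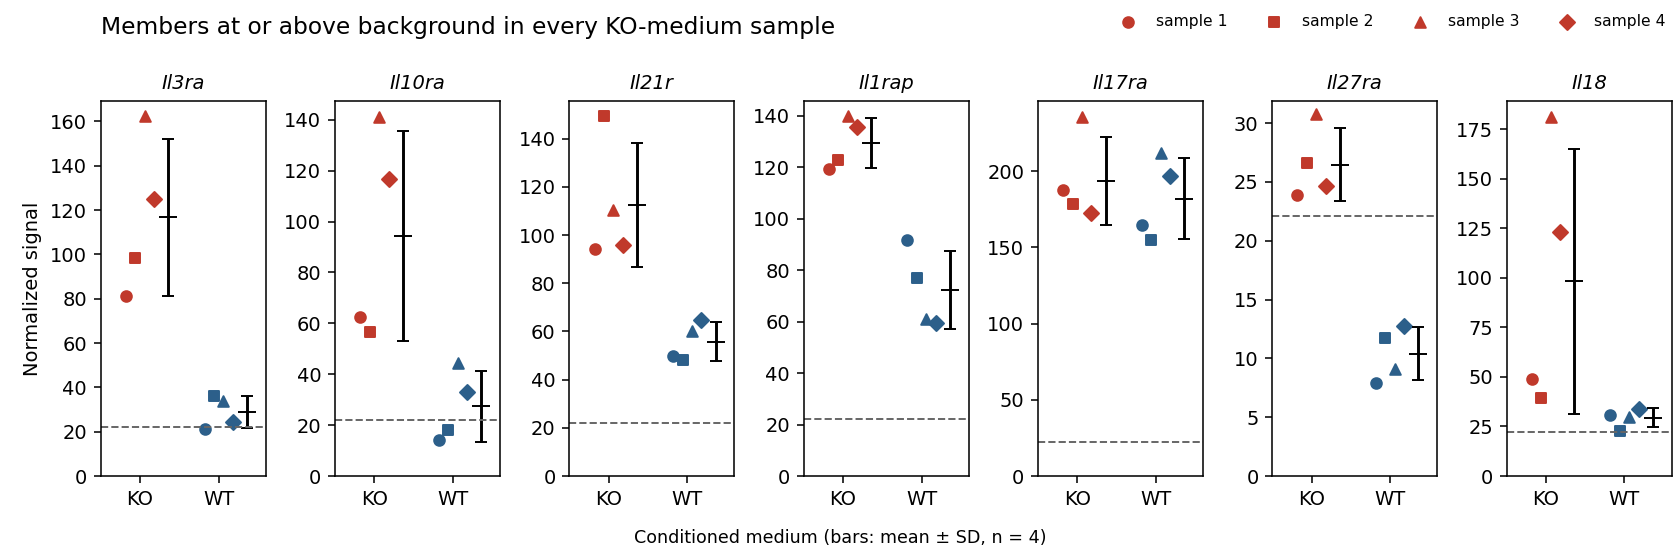
Normalized signal of the 7 genes detected in every KO-medium sample, with KO medium left of WT medium, a symbol for each sample number, bars for the mean ± SD (n = 4) and the background threshold of 22.1 as a dashed line. The groups are apart for 6 genes and overlap for Il17ra. In KO medium, sample 3 is the highest for 6 of the 7 genes.

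Il18 was the only ligand gene tested. It encodes a cytokine of the IL-1 family that is made as a precursor, is cut to its active form by caspase-1 and promotes interferon-gamma in T and NK cells. It had 49.2, 39.4, 181 and 123 in KO medium, against 30.9, 22.6, 30.02 and 34.0 in WT medium. The groups did not overlap, but the lowest KO-medium sample was near the WT-medium samples, and KO-medium samples 3 and 4 were 3.44-fold higher than samples 1 and 2. In WT medium the same ratio was 1.20. The mean was 98.3 ± 66.9 in KO medium and 29.4 ± 4.82 in WT medium, a log2 change of 1.45 (SE 0.46, limma adjusted p = 0.0191). The change was 0.71 within samples 1 and 2 and 2.19 within samples 3 and 4. The call was lost without WT-medium sample 2 (limma adjusted p = 0.0532), without KO-medium sample 4 (0.0547) and with the sample pairs averaged (0.128).

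Macrophages and dendritic cells are common sources of Il18. Of 10 measured macrophage and monocyte markers, 5 were never detected, among them Adgre1 and Csf1r, and of 5 measured dendritic cell markers 4 were never detected. Other markers of the first list were detected, with Cd68 at 154 to 209 in KO medium, against 192 to 328 in WT medium, and C1qa at 24.6 to 41.2 in KO medium, against 19.9 to 40.4 in WT medium. The macrophage and monocyte list summed to 356, 421, 614 and 573 in KO-medium samples 1 to 4, against 308, 380, 591 and 467 in WT-medium samples 1 to 4. Ccr2, a chemokine receptor gene of that list which activated T cells also express, held 352 of the sum in KO-medium sample 3 and 83.7 of it in sample 1. The part of such cells in the Il18 signal was not tested.

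The remaining 14 ligand genes had a mean below background. Il9, a type 2 cytokine gene, was nearest to the threshold, at 19.9, 26.6, 25.5 and 14.2 in KO medium, against 13.5, 19.0, 14.6 and 19.1 in WT medium, and the groups overlapped. Il33, which encodes an alarmin, was 2.66 to 8.49 in KO medium, against 5.43 to 15.8 in WT medium, below the threshold in all 8 samples. The other 12 were the type 2 cytokine genes Il4 and Il5, the IL-12 family genes Il12a, Il12b, Il23a and Il27, the IL-1 genes Il1a and Il1b, the IL-10 family genes Il10 and Il22, and Il6 and Il25. Together with Il33, Il1rn, Il4i1, Il1r1, Il1r2 (the decoy receptor of IL-1) and Il5ra, they make up the 18 genes never detected. Their values ran from 1 to 18.0 in KO medium and from 1 to 15.8 in WT medium, with medians of 2.84 and 3.18. The negative control probes ran from 1 to 28 counts in KO medium and from 3 to 30 in WT medium, with medians of 6 and 8, and the highest of them came from 1 probe. The values of the 18 genes could not be told apart from this range at this depth.

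Below the threshold, 3 of the 20 untested genes had groups that did not overlap, where 11.0% of all untested genes lay wholly higher in KO medium and 3.0% wholly lower. Il27ra, described above, was one. Il4i1, an enzyme gene whose product breaks down aromatic amino acids and is known from myeloid cells and B cells, was 17.3, 15.1, 14.9 and 18.0 in KO medium, against 9.50, 6.33, 6.37 and 5.31 in WT medium. With no filter on low values it was called higher (limma adjusted p = 0.00306). Il1r1 was 5.31, 2.32, 5.30 and 2.84 in KO medium, against 7.92, 10.9, 10.9 and 13.8 in WT medium, and was called lower in the same fit (limma adjusted p = 0.00546). In the same fit 32.6% of all panel genes were called higher and 15.6% lower. Il4i1 and Il1r1 were chosen after their values were seen. All their values lie within the range of the negative control probes, and 0 of the 8 control probes had groups that did not overlap. The control probes are counts without the deposited scaling, so their overlap is not a like comparison for these genes.

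Other genes of interleukin signalling were mixed. From a list of 36, 19 were measured and 14 tested, of which 8 were higher in KO medium, 2 lower and 4 did not pass, beside 46.9% higher and 24.7% lower over all tested genes. Their median log2 change was 0.49, beside 0.41 over all tested genes. Jak3, the kinase of the common gamma chain, rose to 241 ± 37.3 in KO medium, against 71.4 ± 3.74 in WT medium (log2 change 1.73, SE 0.13, limma adjusted p = 4.71e-06). Stat6, the factor downstream of IL-4, rose by 1.24 on the log2 scale, Stat4, downstream of IL-12, by 1.46 and Stat3, downstream of IL-10 and IL-21, by 0.93 (limma adjusted p of 0.000602 or less). Lif, a gene of the IL-6 family of cytokines, fell to 42.7 ± 17.6 in KO medium, against 196 ± 22.5 in WT medium (log2 change -2.26, limma adjusted p = 0.000138). Casp1, the caspase that cuts the IL-18 precursor, fell to 51.7 ± 25.3, against 149 ± 48.7 in WT medium (log2 change -1.58, limma adjusted p = 0.00449). Between the media, its mean and that of Il18 as deposited moved in opposite directions. Within KO medium Casp1 was 29.2, 32.4, 81.7 and 63.5 in samples 1 to 4, so both genes were higher in samples 3 and 4. Within WT medium Casp1 was 96.6, 121, 179 and 201 in samples 1 to 4. It was thus higher in samples 3 and 4 there too, while Il18 was 1.20-fold higher in them. A link between the genes was not tested. Csf2ra, the alpha chain of the related GM-CSF receptor, was below the threshold on average and was not tested.

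The 4 receptor genes that rose did so in samples in which T cell genes were also higher, some of which, such as Ptprc and Fyn, other cells express too. The geometric mean of the 6 T cell markers was 148, 182, 254 and 211 in KO-medium samples 1 to 4, against 60.2, 72.3, 114 and 85.7 in WT-medium samples 1 to 4. When every sample was scaled to these 6 genes, 1 of the 6 tested interleukin genes was higher in KO medium, 1 was lower and 4 did not pass, against 13.4% higher and 56.8% lower over all tested genes. The median log2 change of the 6 was then -0.030, and that of all tested genes -0.85. Of the 14 tested signalling genes, 0 were higher and 9 lower on this scale.

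Il3ra was the gene that stayed higher relative to T cell genes. Its scaled signal was 67.7 to 80.2 in KO medium, against 35.8 to 62.9 in WT medium, with no overlap and a log2 change of 0.71 (SE 0.27, limma adjusted p = 0.0258). Il17ra was the gene that became lower, with 103 to 159 in KO medium, against 233 to 343 in WT medium, and a log2 change of -1.18 (SE 0.23, limma adjusted p = 0.000358). Il10ra kept a positive value of 0.53 (limma adjusted p = 0.124) and Il18 one of 0.21 (0.620), while Il21r and Il1rap turned to -0.27 (0.406) and -0.41 (0.254). The groups overlapped for these 4 genes. More transcript in each T cell, more T cell RNA in the culture and a different share of RNA from other cells cannot be told apart here.

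**Figure D3:**
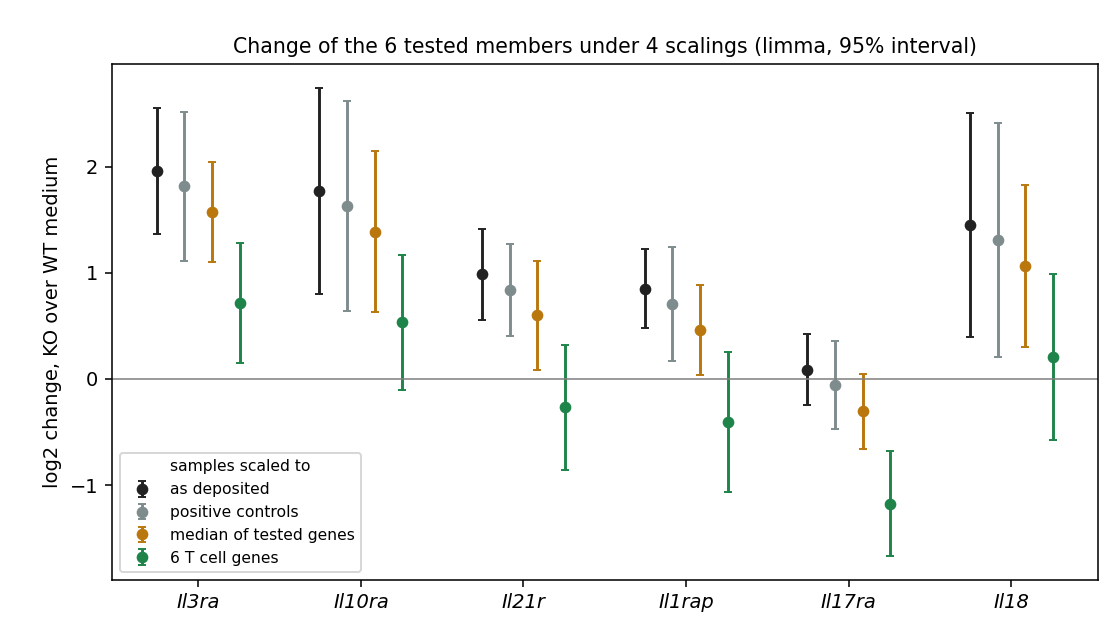
Log2 change of the 6 tested genes, KO over WT medium, with 95% intervals from limma, for values as deposited and with samples scaled to the positive controls, to the median of tested genes or to 6 T cell genes. With T cell genes as the scale, the interval of Il3ra lies above 0, that of Il17ra below 0 and the other 4 include 0.

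**Figure D4:**
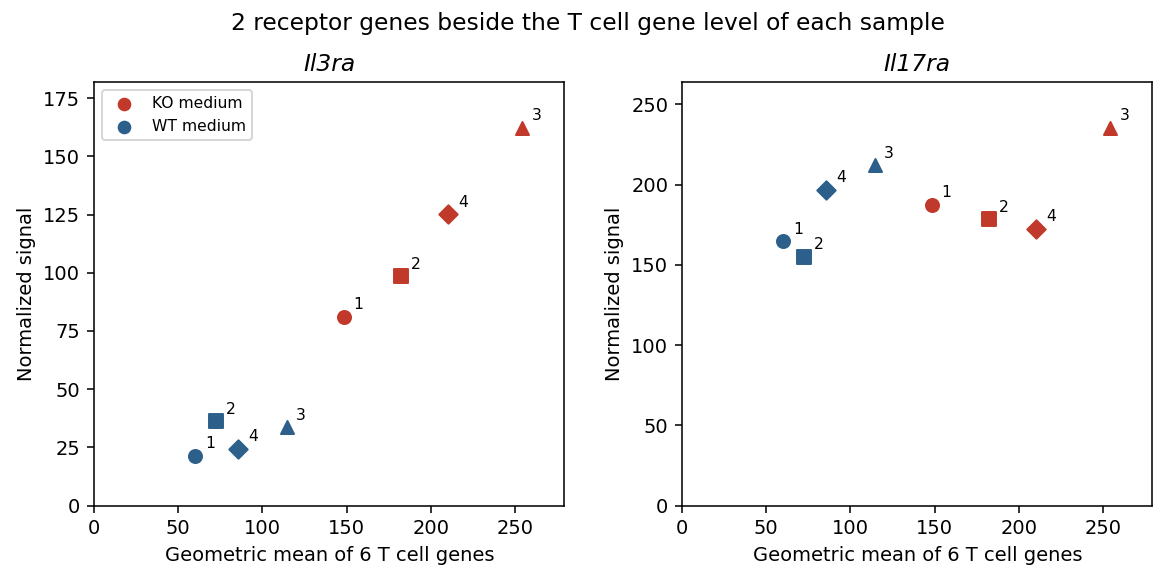
Normalized signal of Il3ra (left) and Il17ra (right) against the geometric mean of 6 T cell genes in the same sample, both axes linear from 0, with the sample number beside each point, KO medium in red and WT medium in blue. Il3ra is higher in the 4 KO-medium samples, which also have the higher T cell gene level, while Il17ra spans 172.5 to 235 in KO medium and 155 to 212 in WT medium.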

How the data were processed

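Total RNA of 8 T cell cultures was counted on an nCounter panel of myeloid and innate immunity genes, per the labels' protocols. The deposited table holds normalized signal for 754 genes, with 14 control probes left as whole counts, while the software and the normalization of the authors are not stated in these sources. Gene values below 60 were whole multiples of 1 step per sample (tolerance 0.05 of a step) for 100% of values above 1, and dividing by the step gave the counts and totals quoted, leaving out values listed as 1.

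Genes with a mean of at least 22.1 (negative-control mean plus 2 SD) were tested with limma 3.58.1 in R 4.3.3 on log2(value + 1) with its trend option, two-sided, adjusted by Benjamini-Hochberg over 454 genes with a threshold of 0.05. The fitting code was checked on simulated data. Deviations of same-numbered samples correlated at 0.454, 0.296, 0.465 and 0.197 across genes. KO-medium samples 2 and 4 correlated best with WT-medium samples 1 and 3, and WT-medium sample 4 with KO-medium sample 3. Pairing by number was thus not settled, and the sample numbers from the titles were used as a block in an alternative only. Other alternatives were scaling, pseudocounts, filters, the variance model, sample pairs averaged and each sample left out. All 26 symbols matched RefSeq. Named were the tested genes and those detected in any sample, the 6 signalling genes with the smallest p and some of the detected markers. Other detected markers are not described, among them Klrk1 (NK cells), Gata3 (mast and innate lymphoid cells), Itgam (macrophages) and Mmp9 (neutrophils). Il1r1, Il33 and Il4i1 were added after their values were seen, as were Adgre1, Csf1r and Csf2ra, and the examples of detected markers. The members, lists and tests were chosen with earlier results of these data known. The CD4 T cell and melanoma marker lists had 0 measured genes.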

Additional observations from a re-analysis of the deposited data

How the results depend on the processing

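The 5 genes called higher became 3 with quantile normalization, 1 when scaled to T cell genes and 2 when the values of samples 1 and 2, and those of samples 3 and 4, were averaged, and ran from 4 to 5 with each sample left out. They numbered 7 with no filter, which tests all 26 genes. Over all 454 genes tested, 213 were called higher in the reported fit and 166 with quantile normalization. Scaling to T cell genes left 61 of the 454, and averaging the sample pairs left 144. With each sample left out, 196 to 223 of all tested genes were higher, and with no filter 246 of 754. The count of interleukin genes called lower, 0 in the reported fit, was 1 when scaled to T cell genes (Il17ra) and 1 with no filter (Il1r1), and 0 with each sample left out. Over all tested genes, 112 were lower in the reported fit, 258 when scaled to T cell genes and 118 with no filter. With each sample left out that count ran from 101 to 119. The median log2 change of 1.22 was 0.83 with median scaling, 0.73 with quantile normalization, 0.24 with no filter and -0.030 when scaled to T cell genes, and ran from 1.03 to 1.38 with each sample left out. Over all tested genes the median was 0.41 in the reported fit, 0.021 with median scaling and 0.11 with quantile normalization. It was -0.85 when scaled to T cell genes and 0.28 to 0.46 with each sample left out. With no filter it was 0.24, so the interleukin genes then lay at the median of the panel. With the sample number as a replicate block the interleukin median was 1.22 and 5 interleukin genes were higher, as were 227 of all 454 tested genes. The block changed no call of an interleukin gene. The change of Il17ra turned negative with median scaling (-0.30), quantile normalization (-0.24), positive-control scaling (-0.061), T cell gene scaling (-1.18) and in samples 3 and 4 alone (-0.018), the last an alternative chosen after seeing the data, and ran from -0.010 to 0.16 with each sample left out. T cell gene scaling also reversed Il1rap (-0.41) and Il21r (-0.27), and Il21r lost its call with quantile normalization (limma adjusted p = 0.0914). Detected genes numbered 6 in KO medium under each other threshold tried, and in WT medium 3 to 5 over all thresholds and with each sample left out. The planned edgeR and DESeq2 fits were not run, because 3 of the 8 columns, read with their control rows and floor of 1, did not pass the check for whole counts. At this depth the 20 untested genes had means below the background threshold. The causes of these changes were not tested.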
